A study of Mus musculus with 240 samples.

Results

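Of the 240 libraries of the series, 56 at each of 2 times hold RNA of 10 cells each, and the 56 described here are the ten-cell libraries with the most and the least neuron marker RNA. Within each time, 56 ten-cell libraries were ordered by a score, the mean log2(CPM + 1) of Snap25, Syt1, Nefl, Nefm, Stmn2 and Thy1, where CPM is counts scaled to a total of 1000000 over all genes without spike-ins. The 14 highest and the 14 lowest were selected on that score at 12 and again at 90 days after the start of tamoxifen (dpi). All of these libraries, high and low alike, come from mice labelled Trp53-/- Nf1-/-, and their cells were cut by laser from 8 µm cryosections and labelled oligodendrocyte precursor cells (OPCs), the dividing glia that give rise to oligodendrocytes. Their cDNA was amplified by PCR before Nextera XT library preparation. The comparison libraries of the same genotype and times are 80 pool-and-split controls, 40 per time. The labels give sex and a number, which form 4 sets of 14 ten-cell libraries per time, and do not say what the number is or which libraries share a mouse. The Cre driver and the number of mice per set were not given in the sources used here. No ten-cell library of another genotype was analysed here.

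OPCs lie among neurons and their processes in the brain, receive synaptic contacts from axons, and transcribe some genes that are better known from neurons, among them glutamate receptor and ion channel subunits. The score genes are of another kind: Snap25 and Syt1 encode parts of the machinery that fuses synaptic vesicles, Nefl and Nefm are neurofilament subunits of the axon, Stmn2 regulates microtubules in growing axons, and Thy1 is a surface protein of projection neurons. In a section cut by laser, a spot that holds an OPC can also hold pieces of neighbouring cells, and with 10 cells per library more neuron RNA per cell and more neuron material in the spot cannot be told apart.

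The label OPC was checked first. Cspg4, the NG2 proteoglycan of OPCs, was detected in 14 of 14 high and 14 of 14 low libraries at 12 dpi and in 14 and 14 of 14 at 90 dpi. Pdgfra, the growth factor receptor that defines OPCs, was detected in 12 high and 8 low libraries at 12 dpi and in 12 and 12 at 90 dpi, with medians of 1.76, 2.16, 7.61 and 5.26 CPM. All 5 of Pdgfra, Cspg4, Olig1, Olig2 and Sox10 had a count in 8 high and 4 low libraries at 12 dpi and in 11 and 9 at 90 dpi. OPC transcripts were thus present in most libraries of both groups. Of the targeted genes, Nf1 was too sparse to test and had a count in 6 high and 3 low libraries at 12 dpi and in 10 and 7 at 90 dpi. Trp53 had a count in 9 and 7 libraries at 12 dpi and 12 and 9 at 90 dpi, and did not pass the test at either time (log2 difference 2.48, SE 1.32, adjusted p = 0.247 at 12 dpi). Reads from parts of a gene outside a deletion count too, so these values do not check the genotype.

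At 12 dpi the score ran from 1.15 to 4.02 in the low libraries and from 6.60 to 8.98 in the high ones. The library just above the low group stood at 4.19 and the one just below the high group at 6.55. At 90 dpi the low group spanned 2.68 to 5.11 and the high group 6.65 to 8.64, with the neighbouring libraries at 5.12 and 6.63. In the plot of scores, the libraries between the groups fill the space from one to the other. Each set gave 3 or 4 high and 3 or 4 low libraries at 12 dpi. The 90 dpi groups were less even, since set 1 of the females gave 6 high libraries and set 1 of the males gave 6 low ones.

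**Figure D1:**
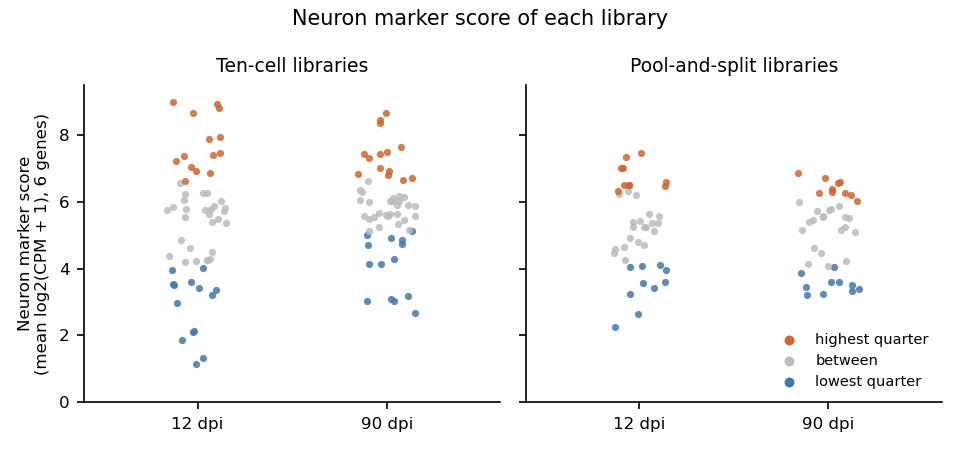
Each point is 1 library, placed by time on the horizontal axis and by its neuron marker score, the mean log2(CPM + 1) of 6 genes, on the vertical axis; colours mark the high group, the low group and the libraries between. At 12 dpi the ten-cell scores reach from 1.15 to 8.98, and the pool-and-split scores from 2.26 to 7.46.

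The 6 score genes did not carry the split equally. Their values chose the groups and are given as a description, with no test. Stmn2 made up 23.5% of the difference in mean score at 12 dpi. It spanned 77.7 to 1715 CPM with a median of 467 in the 14 high libraries and 0 to 575 CPM with a median of 0 in the 14 low libraries. Thy1 gave 20.2%, Nefl 19.8%, Nefm 14.7% and Syt1 12.4%. Snap25 contributed 9.32%: it was detected in all 28 libraries, and spanned 416 to 1593 CPM with a median of 1135 in the 14 high libraries and 1.22 to 1968 CPM with a median of 159 in the 14 low libraries. Nefm had no count in any low library at 12 dpi and was detected in 12 of 14 high ones, up to 412 CPM. Nefl had a count in 3 low libraries, at most 2.38 CPM, and in all 14 high ones, up to 992 CPM. At 90 dpi the part of Snap25 was 4.21%, and its ranges overlapped, 229.9 to 1048 CPM in the high and 101 to 721 CPM in the low libraries. Stmn2, Nefl, Thy1 and Nefm gave 21.9%, 20.5%, 20.2% and 19.6% there. Nefl, Nefm, Stmn2 and Thy1 had low group medians of 0, 0, 0 and 0.0867 CPM at 12 dpi and 1.18, 0, 16 and 9.33 CPM at 90 dpi, while Snap25 was present throughout. Across the 56 libraries of a time, the 15 pairs of score genes had correlations of log2(CPM + 1) from 0.20 to 0.58 with a median of 0.31 at 12 dpi, and from -0.03 to 0.43 with a median of 0.20 at 90 dpi. These points share library depth and the number of genes detected.

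High and low libraries also differed in how many other genes they contained. At 12 dpi the high libraries held 4830.0 to 12634 genes with a count above 0 (median 9464, score genes left out) and the low libraries 3322 to 8065 (median 5507). The mean difference was 3769.9 genes (two-sided permutation test, 100000 resamples, adjusted p = 6e-05 over 6 tests). At 90 dpi the high libraries held 9272 to 12276 genes, the low ones 6313 to 9599, and the means differed by 2574 (permutation adjusted p = 6e-05). Total counts were between 1639385 and 6489275 per library. They were higher in the high group at 12 dpi, by 657412 counts on average (permutation adjusted p = 0.0338), and missed the threshold at 90 dpi, with a mean difference of 405151 (permutation adjusted p = 0.0513). Spike-in RNA, added in the lab, took a smaller share of counts in high libraries, with medians of 1.38% against 4.79% at 12 dpi (permutation adjusted p = 0.0267) and 2.22% against 4.75% at 90 dpi (permutation adjusted p = 0.0008). Mitochondrial transcripts had medians of 8.13% and 9.4% at 12 dpi, and 7.04% and 9.83% at 90 dpi.

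Over all 56 ten-cell libraries of a time, score and genes detected moved together. At 12 dpi Pearson's r was 0.68 and Spearman's rho 0.66 (permutation adjusted p = 2e-05 for each, the smallest that 100000 resamples can give). Without the 2 libraries farthest from the median score r was 0.65, and within the 4 sets it lay between 0.51 and 0.81. At 90 dpi r was 0.49 and rho 0.49 (permutation adjusted p = 0.00014 and 0.00015), with 0.29 to 0.66 within sets. Of the libraries with fewer than 6000 genes detected at 12 dpi, 11 were low, 5 were between the groups and 1 was high, and at 90 dpi there were none. For that reason each main count below is also given without those libraries.

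**Figure D2:**
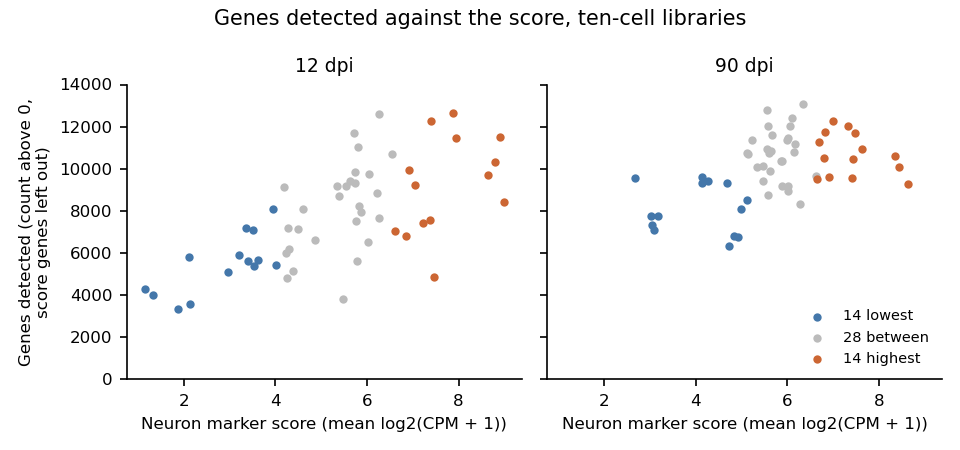
Each point is 1 ten-cell library, with its neuron marker score on the horizontal axis and the number of other genes with a count above 0 on the vertical axis, for 12 dpi on the left and 90 dpi on the right. The low libraries lie at a median of 5507 genes at 12 dpi and 7912 at 90 dpi, under the high libraries at 9464 and 10548.

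Beyond the score genes, many genes were higher in the high libraries at 12 dpi. Slc17a7, the vesicular glutamate transporter of excitatory neurons, Nefh, the heavy neurofilament subunit, Kif5c, a kinesin of axonal transport, and Sv2b, a synaptic vesicle protein, all passed the test. They were the only called members of their lists: 1 of 10 excitatory, 2 of 20 axon and 1 of 21 synaptic vesicle genes tested. Of 17 tested neuron identity genes 0 were called. Such counts are near the share called over all tested genes, given next. In edgeR's quasi-likelihood test, with Benjamini-Hochberg adjustment over 9395 genes, 778 genes (8.28% of those tested) were higher and 92 (0.979%) lower in high libraries at an adjusted p under 0.05. The groups were formed from the same libraries, so a call says that a gene varied together with the score across these libraries. No gene's values in the 14 high libraries lay apart from those in the 14 low ones. Called higher genes were detected in a median of 10 high and 2 low libraries, and 121 of the 778 had no count in any low library, while over all tested genes the medians were 11 and 6. Without the libraries under 6000 genes detected, 51 genes were called, 18 of them among the 870, and with the score replaced by its residual on genes detected 97 were called. Both alternatives chose the high and low groups again, the first with fewer libraries at each end. Leaving out set 1 of the males gave 1368 calls. With DESeq2 2088 genes were called, of which 54% were higher, against 89.4% with edgeR.

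Slc17a7 had a higher median at each step of the score. At 12 dpi it spanned 0 to 216 CPM with a median of 49.9 in the 14 high libraries and 0 to 6.05 CPM with a median of 0 in the 14 low libraries, and its median was 0.539 in the 28 libraries between. It was detected in 13 of 14 high and 6 of 14 low libraries, and the groups overlapped (log2 difference 5.65, SE 1.34, adjusted p = 0.00337). Nefh, at chr11:4938754-4948064 in GRCm38, spanned 0 to 160.3 CPM with a median of 2.54 in the 14 high libraries and 0 to 4.37 CPM with a median of 0 in the 14 low libraries. It had a count in 10 high libraries and in 1 low library (log2 difference 6.36, SE 1.53, adjusted p = 0.00383). Kif5c had a count in all 14 high libraries, where it ran from 0.771 to 4015 CPM with a median of 41.8, and in 3 low ones, where it reached 2.69 CPM (log2 difference 9.19, SE 1.70, adjusted p = 0.000581). Sv2b spanned 0 to 421 CPM with a median of 10.7 in the 14 high libraries and 0 to 2.6 CPM with a median of 0 in the 14 low libraries (log2 difference 7.32, SE 1.56, adjusted p = 0.00135). The high libraries of these 4 genes differ widely among themselves, while no low library exceeded 6.05 CPM in any of them. Left without the libraries under 6000 genes, the differences were 2.93 for Slc17a7 (adjusted p = 0.329), 5.89 for Nefh (0.0861), 3.38 for Kif5c (0.321) and 0.30 for Sv2b (0.963), none of them called. With the score residual, Slc17a7 at 4.53 and Kif5c at 5.69 were called (adjusted p = 0.0467 and 0.04).

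Ion channel genes were the neuron list with the most calls at 12 dpi, 5 higher and 0 lower of 14 tested, beside 8.28% and 0.979% of all genes. Kcnc1, a fast potassium channel of rapidly firing neurons, spanned 0 to 704 CPM with a median of 91.6 in the 14 high libraries and 0 to 15 CPM with a median of 0.191 in the 14 low libraries (log2 difference 5.70, SE 1.37, adjusted p = 0.00385). Scn2a, a sodium channel of axons that OPCs also express, spanned 0 to 405 CPM with a median of 53.3 in the 14 high libraries and 0 to 18.2 CPM with a median of 0 in the 14 low libraries (log2 difference 5.26, SE 1.35, adjusted p = 0.00709). Cacna1b, the pore subunit of N-type calcium channels, was at most 1.08 CPM in the low libraries and reached 106 CPM in the high ones, with a count in 2 and 9 libraries (log2 difference 6.71, SE 1.57, adjusted p = 0.00298). It was called also without the libraries under 6000 genes (log2 difference 7.30, edgeR adjusted p = 0.0336). Kcna1, a potassium channel of axons, had no count in any low library and a count in 5 high libraries, up to 498 CPM. Summed over each group, it was at least 705-fold higher in the high libraries, measured against a floor of 3 counts over the low group (edgeR adjusted p = 0.00154). The direction of Kcna1 turned when the score was taken from summed CPM or without Nefl, and that of Kcnc1 turned without the libraries under 6000 genes (-0.21). Over the list, 9 of 14 tested members had a positive difference, with a median log2 difference of 1.09, beside 0.21 over all tested genes, and without those libraries 7 did, with a median of 0.05.

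None of the general neuron identity genes was called. Of 17 tested identity genes, 0 were called at 12 dpi and 0 at 90 dpi with edgeR, 4 and 1 had an unadjusted p under 0.05, and DESeq2 called 1 higher and 3 lower at 12 dpi. Over all tested genes edgeR called 8.28% higher and 0.979% lower at 12 dpi, and 0.138% and 0.0106% at 90 dpi. For a list of 17 genes, 0 calls is near that background. DESeq2 called 1128 of 9395 genes higher and 960 lower at 12 dpi. Their median difference was 0.63 at 12 dpi, with 10 members positive. Rbfox3, the NeuN antigen of neuron nuclei, spanned 0.634 to 632 CPM with a median of 109.8 in the 14 high libraries and 0 to 2529 CPM with a median of 14.1 in the 14 low libraries, with the highest value in a low library (log2 difference -1.47, SE 1.24, adjusted p = 0.506). Map2, a dendrite protein, had medians of 46.6 and 36.4 CPM at 12 dpi (log2 difference -0.46, SE 0.77, adjusted p = 0.774). Tubb3, the neuron tubulin, spanned 0 to 911 CPM with a median of 265 in the 14 high libraries and 0 to 721 CPM with a median of 0.325 in the 14 low libraries (log2 difference 2.46, SE 1.25, adjusted p = 0.223). Vsnl1, a calcium sensor, had medians of 38.6 and 0 (log2 difference 2.27, SE 1.29, adjusted p = 0.282). For Rbfox3 and Map2 the medians and the fitted difference point in opposite directions. The fit compares means after TMM scaling. The median TMM factor was 1.21 in high and 0.693 in low libraries at 12 dpi and 1.37 and 0.9 at 90 dpi, which lowers fitted differences against those in CPM.

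The remaining neuron lists held a few calls each, read beside the 8.28% of all tested genes called higher. Of 20 axon and microtubule genes, 2 were called higher at 12 dpi, Nefh and Kif5c, and 14 had a positive difference. Ina, the neurofilament alpha-internexin, was not among them: it spanned 3.17 to 315 CPM with a median of 117 in the 14 high libraries and 0 to 1655 CPM with a median of 0 in the 14 low libraries (log2 difference -0.16, SE 1.32, adjusted p = 0.959). Of 21 synaptic vesicle genes, Sv2b alone was called. Syp, a vesicle membrane protein, and Vamp2, a vesicle fusion protein, had log2 differences of -0.26 and 0.85 (adjusted p = 0.921 and 0.587). Of 17 postsynaptic genes, 2 were called higher, both of them glutamate receptor subunits. Grin2b spanned 0.616 to 102 CPM with a median of 32.2 in the 14 high libraries and 0 to 10.8 CPM with a median of 1.75 in the 14 low libraries (log2 difference 3.26, SE 1.06, adjusted p = 0.0389). Gria2 spanned 4.31 to 4150.1 CPM with a median of 243 in the 14 high libraries and 1.15 to 412 CPM with a median of 30.1 in the 14 low libraries (log2 difference 2.60, SE 0.81, adjusted p = 0.029). OPCs are known to express both receptors, and the groups overlapped for both. Without the libraries under 6000 genes Gria2 stood at -0.67 and Grin2b at 0.29 (adjusted p = 0.722 and 0.942).

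**Figure D3:**
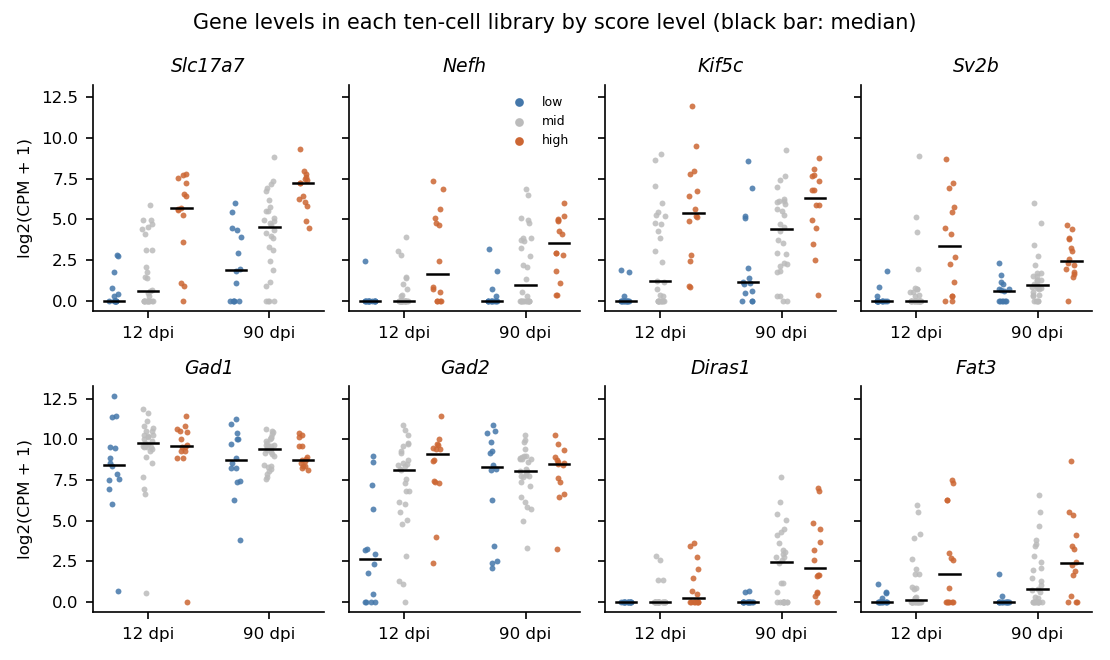
Each point is 1 ten-cell library, with log2(CPM + 1) on the vertical axis and the low, middle and high score levels side by side within 12 and 90 dpi; black bars are medians. Slc17a7 has medians of 0, 0.539 and 49.9 CPM from low to high at 12 dpi and 2.66, 21.7 and 149.8 at 90 dpi, while Gad1 is detected in nearly all libraries at each level.

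Transcripts used as markers of excitatory and of inhibitory neurons were both present in these libraries. Which cells they came from was not tested. Gad1, which makes the transmitter GABA, spanned 0 to 2763 CPM with a median of 777 in the 14 high libraries and 0.61 to 6432 CPM with a median of 349 in the 14 low libraries, and it did not pass the test (log2 difference -0.70, SE 0.66, adjusted p = 0.563). At 90 dpi it spanned 278 to 1354 CPM in high and 13 to 2421 CPM in low libraries (log2 difference -0.69, edgeR adjusted p = 0.83). Gad2, the second GABA-making enzyme, spanned 4.22 to 2738 CPM with a median of 554 in the 14 high libraries and 0 to 498 CPM with a median of 5.38 in the 14 low libraries (log2 difference 2.79, SE 1.00, adjusted p = 0.0651), and at 90 dpi its medians were 364 and 321. Gad1 or Gad2 had a count in all 14 libraries of every high and low group, and in all 28 between at both times. Slc17a7 had a count in 13 high, 17 of 28 middle and 6 low libraries at 12 dpi, and in 14, 24 and 9 at 90 dpi. Since every library held Gad1 or Gad2, their overlap with Slc17a7 was complete in any case and carries no information. Of the 11 tested inhibitory genes 1 was called higher at 12 dpi, Reln, a secreted protein of some interneurons, which spanned 0 to 896 CPM with a median of 78.7 in the 14 high libraries and 0 to 11.5 CPM with a median of 0 in the 14 low libraries (log2 difference 6.34, SE 1.53, adjusted p = 0.00391). Of 10 tested excitatory genes Slc17a7 alone was called. Over all tested genes 8.28% were called higher, so 1 call in either list is near the background. Reln, without the libraries under 6000 genes, stood at 0.16 (edgeR adjusted p = 0.977). Both lists then had 0 calls and 4 positive members, and their medians turned, the inhibitory one to -0.11 and the excitatory one to -0.80. Camk2a, a kinase of excitatory neurons, had medians of 20.5 and 0.112 CPM, with 1 low library at 165 CPM (log2 difference -0.43, SE 1.28, adjusted p = 0.876). Whether Slc17a7 and Gad1 differ from each other in their response to the score was not tested.

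Outside the neuron lists, the largest rises at 12 dpi among called genes of above-median abundance were those of Znfx1, Bex1, Tsr3, Lgi3, Ado and Slc6a7. Ado, Bex1 and Lgi3 had no count in any low library and a count in 13, 13 and 8 high ones. Summed over the groups they were at least 587-fold, 2454-fold and 1330.3-fold higher against the floor of 3 counts over the low group (edgeR adjusted p = 0.000215, 0.000226 and 0.000849). Lgi3 encodes a secreted protein of the synapse and axon, and Slc6a7 a proline transporter of excitatory terminals. Slc6a7 had 2 counts over the low group, a ratio of 1809.7 in CPM with a 95% counting interval from 501 to 14948 (edgeR adjusted p = 0.000607). Tsr3 and Znfx1 had 2 and 3 counts in the low group and reached 897 and 2085 CPM in high libraries (adjusted p = 0.000142 and 0.000226). None of these 6 genes was called without the libraries under 6000 genes, and Ado stood at 0.14, Bex1 at 0.51 and Tsr3 at 1.43 (edgeR adjusted p = 0.979, 0.921 and 0.723). The direction of Bex1 turned with a score from summed CPM (-2.53) and without Nefl (-0.22), and that of Slc6a7 with summed CPM (-0.22) and without Stmn2 (-0.22). Intervals and floors cover counting error only, and PCR copies are not independent molecules. Bex1, known from neurons, also had medians of 79.1 CPM in the libraries between the groups and 32.6 in the high ones, so it did not follow the score within the upper part of the range.

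Immediate early genes, which neurons switch on within minutes of firing, gave 1 call among 9 tested at 12 dpi, beside 8.28% called higher over all tested genes. Fos had a count in 8 of 14 high libraries, with a median of 1.09 and a highest value of 1979 CPM, and 1 count over the 14 low ones (edgeR adjusted p = 0.00103). The middle libraries reached 502 CPM with a median of 0. 6 of the 9 tested members had a negative difference, and the median was -1.25. Of the proliferation list 3 of 20 genes were abundant enough to test. Mcm5, a subunit of the replicative helicase, was called higher, with a count in 7 high and 1 low library (log2 difference 8.69, SE 1.89, adjusted p = 0.00154). Neither was called without the libraries under 6000 genes, Fos at 7.18 and Mcm5 at 5.77 (edgeR adjusted p = 0.0706 and 0.126), and the immediate early median turned to 1.26. Mki67, the usual marker of dividing cells, was not tested and had a count in 4 high and 1 low library at 12 dpi and in 1 and 3 at 90 dpi.

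Lower genes at 12 dpi were fewer, and several rested on a few low libraries with very high values. C1ql1, an OPC gene, spanned 0 to 97.8 CPM with a median of 0 in the 14 high libraries and 0 to 1165 CPM with a median of 0 in the 14 low libraries, with a count in 4 and 3 libraries (log2 difference -6.59, SE 2.22, adjusted p = 0.0461). Slc1a3, the glutamate transporter of astrocytes, spanned 1.1 to 377 CPM with a median of 76 in the 14 high libraries and 3.46 to 3494 CPM with a median of 18.9 in the 14 low libraries (log2 difference -2.96, SE 0.94, adjusted p = 0.0324). For Slc1a3 the median was higher in the high libraries, and the highest values were in low libraries. The largest falls among called genes of above-median abundance had the same shape. Chil1 (-6.42), Abhd5 (-5.38), Ddx39 (-5.18), Pde5a (-5.03), Zcchc6 (-4.96) and Shisa4 (-4.94) each had a low library above 691 CPM or at that value, and medians between 0.434 and 3.16 CPM in the low group. Their edgeR adjusted p-values lay between 0.0143 and 0.0493, and the direction of C1ql1, Chil1, Abhd5 and Shisa4 turned under at least 1 alternative.

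Ribosomal protein genes had mostly negative differences. Of 20 tested, 19 had a negative difference at 12 dpi, 3 were called lower, beside 0.979% of all tested genes, and the median was -1.07. Rpl3 spanned 518 to 2292 CPM in the high libraries with a median of 1450.4, and 1124 to 6526 CPM with a median of 1846 in the low ones (log2 difference -1.40, SE 0.36, adjusted p = 0.00676). Rps4x and Rps14 differed by -1.24 and -1.09 (edgeR adjusted p = 0.0384 and 0.049), and Rps14 turned to a difference near 0 with genes detected as a covariate. At 90 dpi 19 of 20 were negative with a median of -0.65, none of them called. Pool-and-split libraries had the same direction, with 2 of 20 positive at 12 dpi (median -0.44, 1 called) and 4 of 20 at 90 dpi (median -0.34). In ten-cell libraries these differences varied with the setting. Without the libraries under 6000 genes the medians were -0.58 at 12 dpi, with 0 called, and -0.65 at 90 dpi. With genes detected as a covariate they were -0.22 and -0.15, with 7 members positive and 0 called at 12 dpi. With RLE scaling they were -0.88 and -0.36. RLE scaling moved the median of all tested genes from 0.21 to 0.44 at 12 dpi and from -0.10 to 0.18 at 90 dpi.

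At 90 dpi few genes followed the score. In edgeR's quasi-likelihood test 13 genes (0.138%) were higher and 1 (0.0106%) lower in the high libraries, with 810 at an unadjusted p under 0.05, and DESeq2 called 236, of which 49.2% were higher against 92.9% with edgeR. The count fell to 0 with 7 libraries at each end, to 2 with genes detected as a covariate, 0 of them among the 14, and to 0 with the score residual. It rose to 24 without sex as a covariate, to 28 when the libraries under 6000 genes, all of 12 dpi, were left out of the fit and to 55 with 90 dpi fitted alone, which held 13, 12 and 14 of the 14. Leaving out set 1 or set 2 of the females gave 1 and 0 calls, and set 1 or set 2 of the males 2 and 4. Of the 14 genes called at 90 dpi, 8 were also called at 12 dpi, 57.1% of the 90 dpi calls and 0.92% of the 12 dpi calls, and all 8 were higher at both times. Over all tested genes the differences at the 2 times correlated by 0.11 (Pearson), and 54.3% had the same sign. Among the 870 genes called at 12 dpi, 532 had the same sign at 90 dpi. The times share no library, but they entered 1 fit with 1 estimate of the spread per gene, so calls of a gene at both times are not independent.

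The 6 shared genes with the largest differences were Riox1, Ppm1j, Cnot9, Fat3, Diras1 and Dbndd1. Diras1, a small Ras-like GTPase, had no count in any low library at 12 dpi and a count in 7 high ones, none above 11.4 CPM. At 90 dpi it spanned 0 to 129 CPM with a median of 3.55 in the 14 high libraries and 0 to 0.615 CPM with a median of 0 in the 14 low libraries (log2 difference 6.98, SE 1.39, adjusted p = 0.0147). Fat3, an atypical cadherin that shapes neuron dendrites and retinal circuits, spanned 0 to 413 CPM with a median of 4.21 in the 14 high libraries and 0 to 2.25 CPM with a median of 0 in the 14 low libraries at 90 dpi (log2 difference 7.55, SE 1.62, adjusted p = 0.0243), and spanned 0 to 177 CPM with a median of 2.92 in the 14 high libraries and 0 to 1.15 CPM with a median of 0 in the 14 low libraries at 12 dpi (log2 difference 6.52, SE 1.57, adjusted p = 0.00386). Riox1, a ribosomal oxygenase, had no count in the low libraries of either time and a count in 12 high libraries at 12 dpi and 9 at 90 dpi. Against the floor of 3 counts over the low group it was at least 369-fold and 626-fold higher (edgeR adjusted p = 0.00135 and 0.0394). Ppm1j, a protein phosphatase at chr3:104781056-104786018 in GRCm38, had 1 and 2 counts over the low groups and medians of 2.18 and 4.34 CPM in the high ones (edgeR adjusted p = 0.000548 and 0.0147). Cnot9, a subunit of the complex that shortens mRNA tails, had medians of 0.264 and 3.62 CPM in high libraries and 0 in low ones. Its direction at 12 dpi turned with a score from summed CPM (-2.24) and with the score residual (-0.51). Dbndd1 had medians of 10.5 and 12.3 CPM in high libraries, and 1 low library with a count at each time. All 6 are sparse genes, present in some high libraries and nearly absent from low ones. The number of genes detected was also higher in the high libraries at both times, and its part in these calls was not tested.

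The single lower gene at 90 dpi was mt-Co2, a mitochondrial subunit of cytochrome oxidase. It spanned 4533 to 26743 CPM with a median of 15513 in the 14 high libraries and 15372 to 51035 CPM with a median of 26846 in the 14 low libraries (log2 difference -1.38, SE 0.31, adjusted p = 0.0266). At 12 dpi its medians were 20589.7 and 22356 CPM (log2 difference -0.69, SE 0.30, adjusted p = 0.141). Slc17a7 and Nefh did not pass at 90 dpi. Slc17a7 spanned 20.7 to 627 CPM with a median of 149.8 in the 14 high libraries and 0 to 62.1 CPM with a median of 2.66 in the 14 low libraries (log2 difference 3.10, SE 1.16, adjusted p = 0.332), and it had a count in 14 and 9 of 14 libraries. Nefh spanned 0.261 to 63.3 CPM with a median of 11.6 in the 14 high libraries and 0 to 7.91 CPM with a median of 0 in the 14 low libraries, detected in 14 and 4 (log2 difference 4.74, SE 1.53, adjusted p = 0.221). Both differences kept the direction of 12 dpi under every alternative run, and neither differed between the times in the test of the change (edgeR adjusted p = 0.437 and 0.698).

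Over the neuron lists, the counts at 90 dpi were 17 positive of 21 synaptic vesicle genes (median 0.78), 12 of 17 postsynaptic (median 0.74), 11 of 14 ion channel (median 1.05), 15 of 20 axon (median 0.53) and 6 of 10 excitatory genes (median 1.30), beside a median of -0.10 over all tested genes. None of these members was called with edgeR. The inhibitory list stood at 3 of 11 positive (median -0.69), where at 12 dpi it had 8 (median 1.14). Between high and low pool-and-split libraries it had 9 of 11 positive at 12 dpi (median 1.31) and 6 at 90 dpi (median 0.55). The synaptic vesicle, postsynaptic, ion channel and axon lists had pool-and-split medians of -0.45, -0.43, -0.15 and -0.22 at 90 dpi, and the excitatory list 0.13. Identity genes had 7 of 17 positive and a median of -0.16, which became 12 and 0.16 with RLE scaling. Of the 9 tested p53 target genes, 9 were positive at 90 dpi with a median of 1.61 and 3 at 12 dpi with a median of -0.81, none of them called. Between high and low pool-and-split libraries 8 of these 9 genes were positive at 90 dpi too, with a median of 1.37. The ten-cell median at 90 dpi was 1.83 with genes detected as a covariate and 0.49 with the score residual.

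**Figure D4:**
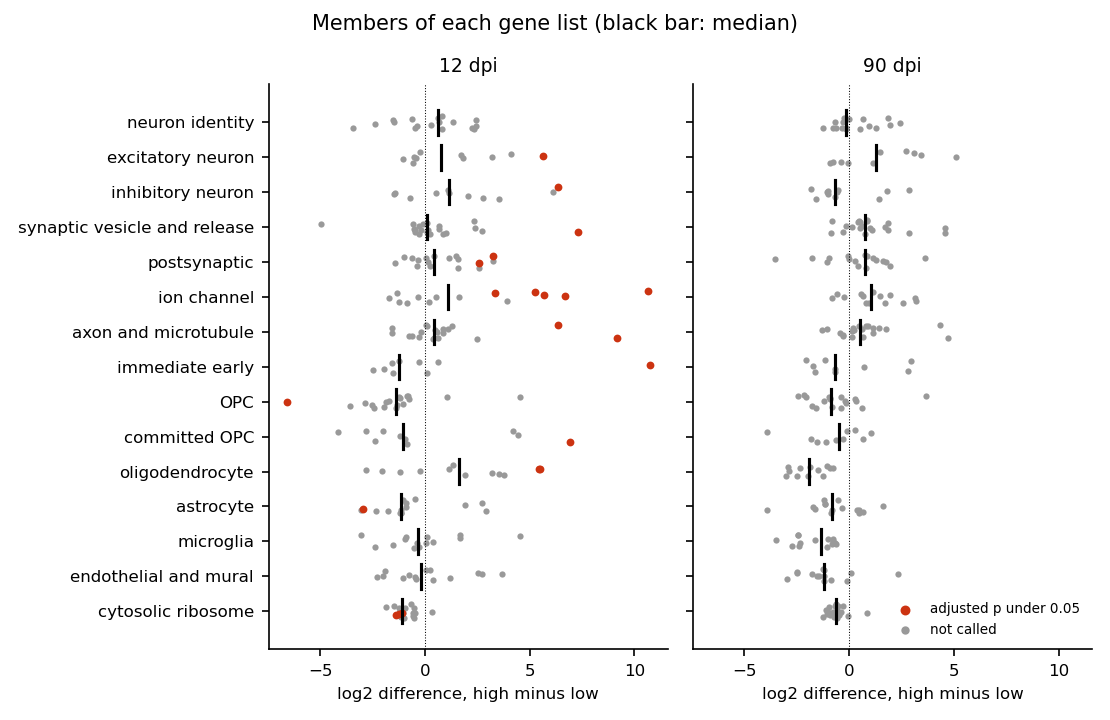
Each point is 1 tested gene, with its fitted log2 difference between high and low libraries on the horizontal axis and its list on the vertical axis, at 12 dpi on the left and 90 dpi on the right; red points passed an adjusted p under 0.05 and black bars are list medians. The ion channel list has 5 red points at 12 dpi, no list has one at 90 dpi, and the oligodendrocyte median moves from 1.64 to -1.91.

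Markers of other brain cells were read in the same libraries. OPC genes had a negative difference in 16 of 18 tested members at 12 dpi (median -1.36) and in 14 at 90 dpi (median -0.88), and C1ql1 was the one call. Over all tested genes 53.7% were positive at 12 dpi and 47.1% at 90 dpi, and 0.979% were called lower at 12 dpi. Between high and low pool-and-split libraries 10 of the 18 OPC genes were positive at 12 dpi (median 0.35). At 90 dpi 1 of 18 was positive there (median -0.63), so negative OPC differences at 90 dpi were not particular to ten-cell libraries. Olig1 and Olig2, transcription factors of the oligodendrocyte lineage, differed by -1.88 and -2.88 at 12 dpi (adjusted p = 0.0901 and 0.195) and by -1.22 and -2.16 at 90 dpi (0.667 and 0.716). Pdgfra, Cspg4, Ptprz1 and Sox10 had differences of -2.55, -1.21, -1.40 and -0.81 at 12 dpi, none called. Yet the summed CPM of the list overlapped almost fully, 352 to 2523 in high and 495 to 16498 in low libraries at 12 dpi, with medians of 1591 and 1861, and 2064 and 2082 at 90 dpi. Without the libraries under 6000 genes 8 of 18 members were positive at 12 dpi. With the score residual on genes detected the median at 90 dpi turned to 0.21, with 9 of 18 positive.

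Oligodendrocyte markers had medians of opposite sign at the times. At 12 dpi 8 of 12 tested members were positive (median 1.64) and 2 were called higher, beside 53.7% positive and 8.28% called higher of all tested genes. At 90 dpi all 12 were negative (median -1.91) and none was called. Mog, a surface protein of mature myelin, had no count in the low libraries at 12 dpi and a count in 2 high ones, at most 17.1 CPM (edgeR adjusted p = 0.0479). Ugt8a, which makes the myelin lipid galactocerebroside, spanned 0 to 150.0 CPM with a median of 0.627 in the 14 high libraries and 0 to 4.01 CPM with a median of 0 in the 14 low libraries (log2 difference 5.52, SE 1.67, adjusted p = 0.0241). Mbp, an abundant myelin gene, had differences of -2.02 at 12 dpi and -0.77 at 90 dpi, not called at either time. With genes detected as a covariate the oligodendrocyte median at 12 dpi turned to -0.56. Without the libraries under 6000 genes the oligodendrocyte median at 12 dpi was -0.35, with 0 called, and Mog turned to -0.38. Tcf7l2, a factor of newly formed oligodendrocytes, was called higher at 12 dpi (log2 difference 6.91, SE 1.83, adjusted p = 0.00907), with a count in 9 high and 4 low libraries.

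Microglia genes were negative in all 14 of 14 tested members at 90 dpi, with a median of -1.34 and a summed CPM of 23.1 to 2235 in high and 80.2 to 4066 in low libraries. Their defining markers were sparse there: Cx3cr1 had medians of 0.36 and 0.304 CPM and P2ry12 of 1.67 and 1.99. At 12 dpi 6 of 14 were positive. Endothelial and mural genes were negative in 12 of 14 at 90 dpi (median -1.23) and in 7 at 12 dpi. Cldn5, a tight junction gene of blood vessels, had medians of 136 and 7.52 CPM at 12 dpi and was called at neither time. Astrocyte genes were negative in 12 of 15 at 12 dpi and 10 at 90 dpi. Slc1a2, Aqp4 and Gfap differed by -1.06, -3.06 and -0.48 at 12 dpi, none called. Slc1a3, described above, was the 1 astrocyte gene called at 12 dpi, lower, beside 0.979% of all tested genes. None of these 3 lists gave a call at 90 dpi. The negative medians of glial and vessel lists at 90 dpi stand beside the positive ones of synaptic and axon lists in the same libraries. The identity and inhibitory neuron lists had negative medians there too, -0.16 and -0.69. Over all tested genes 47.1% were positive at 90 dpi, with a median of -0.10. The part of other cells' RNA in the calls was not tested.

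**Figure D5:**
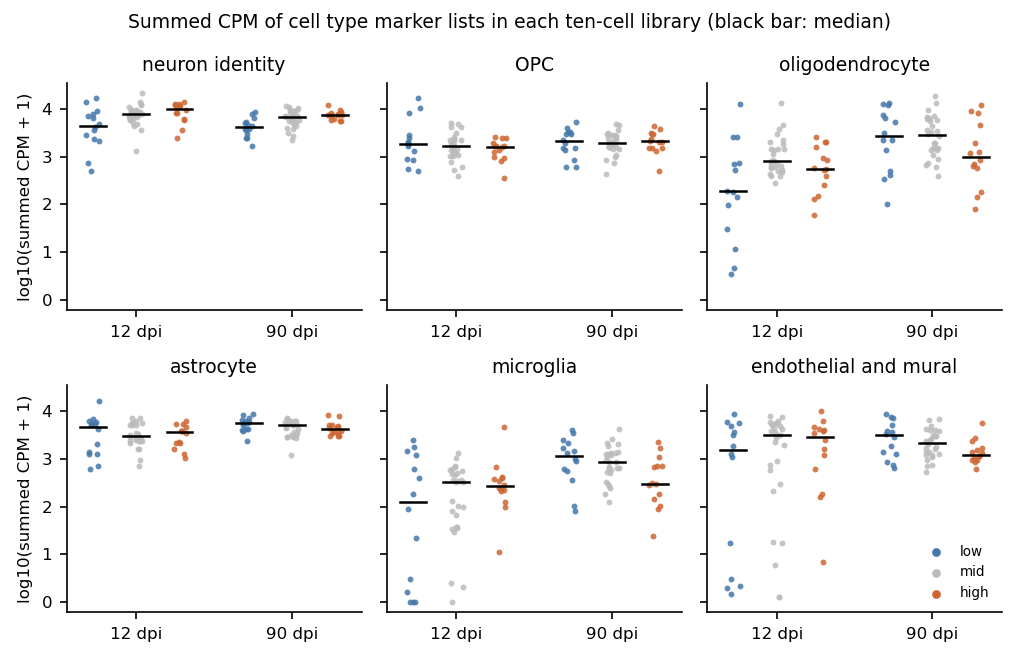
Each point is 1 ten-cell library, with the log10 of its summed CPM (plus 1) over a marker list on the vertical axis and low, middle and high score levels side by side within 12 and 90 dpi; black bars are medians. Neuron identity sums have medians of 9992 and 4460.4 CPM in high and low libraries at 12 dpi and 7437 and 4118 at 90 dpi, while oligodendrocyte sums are 555 and 185, then 1013 and 2697.

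The change of the high-low difference from 12 to 90 dpi was tested directly. It was higher at 90 dpi for 42 genes (0.447%) and lower for 308 (3.28%), as edgeR's interaction contrast found them. Without the libraries under 6000 genes 5 genes were called, with the score residual 33, and with the set as a replicate block 82. Leaving out set 1 of the females gave 90 calls, set 1 of the males 608 and set 2 of the males 173. Kif5c is an example of a lower change. Its medians were 41.8 and 0 CPM in high and low libraries at 12 dpi and 83.2 and 1.17 at 90 dpi, where 11 low libraries held a count and 1 reached 388 CPM. The change was -8.95 (edgeR adjusted p = 0.00356). Gria2 changed by -3.55 (adjusted p = 0.038). Of the genes whose difference was larger at 90 dpi, Cflar, an inhibitor of death receptor signalling, had medians of 2.6 and 2.59 CPM at 12 dpi and 20.8 and 2.07 at 90 dpi, a change of 6.15 (adjusted p = 0.0121).

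The pool-and-split libraries, aliquots of pooled material prepared the same way, give the background of such a split. Their scores also spread. At 12 dpi the mean absolute deviation of the score from its set's median was 1.51 in 56 ten-cell and 0.80 in 40 pool-and-split libraries, given as a description since the score chose the groups. At 90 dpi it was 0.96 and 0.88 there, a difference of 0.0737. The 10 highest pool-and-split libraries at 12 dpi had 7860.0 to 10864 genes detected and the 10 lowest 5629 to 8770.0, and at 90 dpi 8630.0 to 11011 and 6734 to 8042. Between them, the same test called 63 genes (0.671%) at 12 dpi and 9 (0.0958%) at 90 dpi. At 12 dpi 9 of the 10 high aliquots were male and 9 of the 10 low ones female, so sex and score can hardly be told apart there, although sex was in the model. The sets were as uneven, since set 2 of the females gave 0 high and 5 low aliquots and set 1 of the males 5 high and 0 low.

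The difference between kinds was tested itself. The high-low difference was not the same in ten-cell and pool-and-split libraries for 423 genes (4.5%) at 12 dpi and 46 (0.49%) at 90 dpi by edgeR. Sv2b differed by 7.32 in ten-cell and -5.62 in pool-and-split libraries at 12 dpi (adjusted p = 0.00534 for the difference of differences), and Kcnc1 by 5.70 and 0.39 (0.0301). Slc17a7 stood at 5.65 and -0.14 (0.0718), Nefh at 6.36 and 2.33 (0.335) and Kif5c at 9.19 and 2.34 (0.127), which did not pass. Fos stood at 10.73 and -1.20 (0.0111), and Ugt8a at 5.52 and -4.90 (0.0119). At 90 dpi none of the 6 named genes shared between the times passed this test, with edgeR adjusted p-values from 0.0611 to 0.551. With the set as a replicate block the pool-and-split calls fell to 0 at both times and the calls between kinds to 82 and 1.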

How the data were processed

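The deposited table holds expected counts per gene, which the authors made with RSEM and Bowtie2 on GRCm38, per the submitters' processing notes. Versions, the annotation and read filters were not given in the sources used here. The table has 34623 genes and 240 libraries, and coordinates are those of the table.

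Expected counts were rounded. Genes with a count of at least 10 in 28 of the ten-cell libraries, score genes left out, were tested (9395). The 4 groups entered 1 fit in edgeR 4.0.16 (R 4.3.3), with TMM scaling, sex as a covariate and the quasi-likelihood F test. The call threshold was 0.05 after Benjamini-Hochberg adjustment over all tested genes. DESeq2 1.42.0 was an alternative. Log2 differences are high minus low, and levels are unscaled CPM given as lowest, median and highest. SE is the absolute log2 difference divided by the square root of the F statistic. It is not a fitted standard error, and for sparse genes it is not a measure of precision. Library measures were compared by permutation in Python 3.11.15. The common coefficient of variation was 2.15 in ten-cell and 2.09 in pool-and-split libraries. Alternatives, 30 planned and 2 chosen after seeing the data, changed the filter, scaling, score, group size, covariates, tool or sets.

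Members, the 20 gene lists and the rules for named genes were chosen with earlier results of these data known. Named genes are the 6 largest called rises and 6 largest falls per time among genes of above-median mean log2 CPM, the 6 largest in each direction called alike at both times, the 4 largest called members per list and time, the 4 largest called changes between times in each direction, and markers always given. Meg3 was not analysed here. Nothing says that libraries of a set come from separate mice, so p-values measure the spread between these libraries, which may be technical.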

Additional observations from a re-analysis of the deposited data

Results flagged for a closer look

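For 17 of the genes named by rule, the high-low difference changed between the times in the test of the change itself (edgeR's interaction contrast, adjusted p under 0.05). The change in log2 difference was negative for 13 of them. They included the kinesin Kif5c (-8.95), the potassium channel Kcna1 (-8.99), the glutamate receptor subunit Gria2 (-3.55), Lgi3 (-10.45), the proline transporter Slc6a7 (-10.13) and Bex1 (-12.13). Fos changed by -12.36 and the replication gene Mcm5 by -7.66. Of the oligodendrocyte lineage, Tcf7l2 changed by -10.82 and Ugt8a by -8.54. Ado changed by -10.29, Tsr3 by -9.90 and Znfx1 by -13.96. The positive changes were those of Pde5a (7.21), Cpne5 (6.28), Erlin2 (6.20) and Cflar (6.15). Ado, Bex1, Kcna1 and Lgi3 had no count in the low libraries at 12 dpi, and Fos, Mcm5, Slc6a7, Tsr3 and Znfx1 had counts in 1 of them, so their fitted changes depend on the prior count and are not measures of size. The number of genes detected in the low group had a median of 5507 at 12 dpi and 7912 at 90 dpi, and its part in these changes was not tested.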

How the results depend on the processing

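Counts of calls at 12 dpi, at 90 dpi and for the change were 870, 14 and 350. They became 2088, 236 and 799 with DESeq2, 3277, 1125 and 1882 with no filter on low counts, 183, 0 and 43 with a count of 10 asked of 56 libraries, 1623, 0 and 446 with 7 libraries at each end, 1186, 4 and 480 with 10, 668, 0 and 175 with 28, 869, 10 and 111 with the score as a continuous covariate, 313, 3 and 92 with a score from summed CPM, 875, 9 and 358 with a pseudocount of 0.1, 511, 2 and 343 with genes detected as a covariate and 976, 24 and 439 without sex. The 2 alternatives chosen after seeing the data gave 97, 0 and 33 with the score residual on genes detected and 51, 28 and 5 without libraries under 6000 genes detected. The score residual chose the high and low groups again at both times. Leaving out libraries chose them again at 12 dpi, with fewer at each end, and kept the same groups at 90 dpi. RLE scaling and a robust spread left all 3 within 1.5 times, and each time fitted alone gave 580 and 55. Scores without Snap25, Syt1, Nefl, Nefm, Stmn2 or Thy1 gave 8, 6, 4, 8, 7 and 5 calls at 90 dpi. Leaving out each set gave 706 to 1368, 0 to 4 and 90 to 608. Except where fewer genes or samples entered by construction, the cause was not tested.

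With the set as a replicate block the counts were 1039, 19 and 82, and with 3 libraries at each end of every set and the replicate block 1152, 2 and 53. Pool-and-split calls, 63 and 9 at 12 and 90 dpi, became 0 and 0 with the block and 789 and 557 with DESeq2. The differences between kinds, 423 and 46, became 82 and 1 with the block, 1242 and 500 with DESeq2 and 592 and 19 with 10 ten-cell libraries at each end. Deviations of libraries in high and low groups of the same set correlated by -0.01 to 0.08, highest for the own set except in set 2 of the males at 12 dpi. No value reached 0.1, and no pairing was assumed in the main fit. Values this small do not show that libraries of a set share nothing, and what they share is not given. The spread of the score, centred on the time, differed by 0.47 at 12 dpi, against 0.71 centred on the set. Genes detected kept direction and call at both times with a count of at least 5 and after thinning, as did all 3 library measures when permuted within sets. Sizes of differences were not measurable at this depth for genes with at most 3 counts over a low group.

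Of 1074 alternative values of the 39 named genes called at 12 dpi, 716 kept the call, 336 lost it in the same direction and 22 turned, and of 190 values of 7 genes called at 90 dpi 69 kept the call and 121 lost it. At 12 dpi, the score from summed CPM turned Bex1 (-2.53), C1ql1 (3.00), Cnot9 (-2.24), Kcna1 (-2.36) and Slc6a7 (-0.22). Without libraries under 6000 genes C1ql1 (3.75), Gria2 (-0.67), Kcnc1 (-0.21), Mog (-0.38) and Shisa4 (1.61) turned, with the score residual Cnot9 (-0.51) and Ugt8a (-0.25), and with genes detected as a covariate Rps14 (0.0283). Without Nefl in the score Bex1 (-0.22) and Kcna1 (-1.86) turned, and without Stmn2 Slc6a7 (-0.22). Abhd5 turned with the block (2.15), at 12 dpi alone (1.30), with 7 at each end (2.21), with 3 of each set (0.69) and without set 1 of the females (2.58), as did Chil1 without that set (0.29). Without each set in turn, Abhd5 ranged from -6.16 to 2.58 and Chil1 from -8.38 to 0.29. Changes between times turned with summed CPM for Bex1 (2.70), Cnot9 (9.52) and Kcna1 (1.85), without Nefl for Kcna1 (1.57), and for Riox1 with a pseudocount of 0.1 (-8.86) and without Stmn2 (-6.87).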

Other observations

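The same 6 genes can be scored in the bulk libraries of the series, which come from 10 µm sections and linear amplification with T7, not PCR, so levels are not set against the ten-cell scores. In Trp53-/- Nf1-/- mice the bulk score was 7.27 to 8.01 over 8 libraries at 12 dpi and 7.24 to 9.37 over 10 at 90 dpi. In wild-type mice it was 7.42 to 7.99 over 5 libraries at 12 dpi, 7.50 to 7.75 over 5 at 90 dpi and 6.82 to 7.82 over 6 at 150 dpi. The 14 tumour libraries of 7 mice at 150 dpi scored 1.81 to 5.68, below every other bulk library. Of the lists not described above, 20 oxidative phosphorylation genes were tested in the ten-cell libraries and had median differences of -0.28 at 12 dpi and -0.26 at 90 dpi. The 5 tested MAPK output genes had medians of -1.03 at 12 dpi and -0.05 at 90 dpi, and the 4 tested of 12 striatal projection neuron genes -1.89 at 12 dpi and 1.29 at 90 dpi. With edgeR 0 members of these 3 lists were called at either time, 2, 0 and 1 having an unadjusted p under 0.05 at 12 dpi and 1, 0 and 1 at 90 dpi. The 10 tested genes of committed OPCs had medians of -1.05 at 12 dpi and -0.47 at 90 dpi, with Tcf7l2 as the 1 call, higher at 12 dpi. Over all tested genes 8.28% were called higher at that time, so 1 call is near the background.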
